A study of Mus musculus with 36 samples.

Results

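Of the 171 cytosines that the targeted bisulfite table lists, 61 are of the Nr4a3 promoter, and Nr4a3 was 1 of the 3 genes in it. The cytosines were all those assigned to Nr4a3, and they were described in 3 blocks by their distance from the transcriptional start site (TSS). The distal block held 32 cytosines from −2326 to −2081 bp, a short edge block 6 from −2067 to −2050 bp, and the proximal block 23 from −260 to −45 bp.

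The samples were myotubes of C2C12, an established mouse muscle cell line that fuses into contractile fibre-like cells when serum is lowered. Myotubes in differentiation medium received electrical pulse stimulation (EPS) from carbon electrodes, which makes them contract, or stayed unstimulated as control cells. DNA was taken from 3 EPS-stimulated and 3 control samples at each of 6 times after EPS (0 and 30 min, then 60, 120, 180 and finally 240 min), giving 36 samples in 12 groups. No sample carried a genetic change or received a drug, and the comparison addressed whether contraction alters promoter methylation of exercise-responsive genes. All samples derive from a single line in culture, so they hold no innervation, circulation or other cell types of muscle, and the study calls the replicates independent experiments without saying what separated them, so the p-values measure the spread between these samples only. The unit throughout is the percent of methylation that the authors list per cytosine and sample, and the depth behind each value is unknown.

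Nr4a3, also called NOR-1, encodes an orphan nuclear receptor of the NR4A family, a transcription factor for which no physiological ligand is established. It is an immediate-early gene whose mRNA rises within hours of contraction, and its product takes part in the oxidative and glucose metabolism of muscle. Cytosines followed by guanine (CpG) are the usual sites of DNA methylation in mammals, CpG-rich promoters are mostly kept free of it, and bisulfite sequencing does not separate methylcytosine from hydroxymethylcytosine.

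The sequences below show where the listed cytosines lie. Coordinates are those of GRCm38 (mm10) on the plus strand, from which Nr4a3 is transcribed, and distances count from the TSS of the authors at chromosome 4 position 48045153, where the GENCODE M21 model of the gene (ENSMUSG00000028341.9) begins. The distal amplicon covers chr4:48042828-48043025, −2325 to −2128 bp, where no gene is annotated. It is 198 bp long with 17 CpG sites and a GC content of 72.2%. The flank beyond it, chr4:48043026-48043104, holds 15 CpG sites in 79 bp with a GC content of 81.0% and carries the last 9 cytosines of the distal block and the whole edge block. The proximal amplicon covers chr4:48044902-48045133, −251 to −20 bp, in 232 bp. Its first 176 bp, chr4:48044902-48045077, hold 17 CpG sites and a run of 19 CA repeats from −164 to −127 bp. Capitals mark CpG sites in the first 3 sequences and cAMP response element half-sites in the last, which covers chr4:48045089-48045107.
Distal amplicon: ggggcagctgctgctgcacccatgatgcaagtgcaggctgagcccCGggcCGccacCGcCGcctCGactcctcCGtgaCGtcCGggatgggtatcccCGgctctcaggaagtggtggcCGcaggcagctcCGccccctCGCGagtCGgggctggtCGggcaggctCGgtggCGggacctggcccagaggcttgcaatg
Flank beyond the distal amplicon: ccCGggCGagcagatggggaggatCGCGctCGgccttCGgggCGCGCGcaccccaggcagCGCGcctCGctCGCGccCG
Proximal amplicon, upstream part: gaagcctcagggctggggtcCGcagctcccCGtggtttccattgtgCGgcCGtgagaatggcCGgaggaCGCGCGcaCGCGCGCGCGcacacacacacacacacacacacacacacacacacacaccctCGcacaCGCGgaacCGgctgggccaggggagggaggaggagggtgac
Proximal half-sites: tgtCGTCAcatTGACGtct

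The half-sites were searched as TGACG on the plus strand and CGTCA, the same letters on the other strand, because NR4A promoters are textbook targets of the cAMP-responsive factor CREB. The proximal amplicon holds 3 of them, and the listed cytosines at −76, −61 and −50 bp are their CpG cytosines. The last sequence above marks those of −61 and −50 bp only. That of −76 bp, from −79 to −75 bp, runs past the end of the printed upstream part and is not marked as a half-site. The first 232 bases of 32851 promoter sequences from RefSeq hold at least 1 in 16.1% and at least 3 in 0.545%. The distal amplicon holds 1 half-site, at the listed cytosine −2247 bp, as do 12.5% of promoters over 198 bases. No match was found in the flank, and 4.0% of promoters have one in 79 bases. The promoter stretches were not matched to the amplicons in GC content or distance from the TSS. The shares therefore do not show that the matches are rare in such sequence. All are matches of letters and were not tested for binding.

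By cytosine context, 27 of the 32 distal cytosines, all 6 edge cytosines and all 23 proximal ones are CpG sites. The other 5, at −2229, −2221, −2205, −2201 and −2166 bp, are CHG cytosines (the middle base is any but G, the third is G), a context where methylation is usually low in differentiated mammalian cells. Between the primers of their amplicons lie 22 distal and 22 proximal cytosines. Listed values outside the amplicons concern −2326 bp, 1 bp before the distal amplicon, the 9 distal cytosines beyond its end, the 6 edge cytosines and −260 bp. What reads gave these outside values was not tested. The 2 RefSeq models with curated transcripts start 152 bp downstream of the TSS used here, and a predicted one starts at −75 bp, so that the cytosines from −71 to −45 bp lie in its first exon and the others in none.

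Listed methylation of Nr4a3 was low at the distal block and at 0 in most samples of the proximal block. It was both higher and widely scattered at the edge, which lies outside the amplicons. Over all 36 samples, the distal block mean ranged from 0.280% to 0.594%, with a mean of 0.382% ± 0.0706 (SD, n = 36). The edge block ranged from 0% to 75% with a median of 5.24%, and its mean was 11.0% ± 17.2 (SD, n = 36). The proximal block ranged from 0% to 2.27% with a median of 0% in the 31 samples that had a value. Within samples, the edge was above the distal block by 10.6 percentage points on average and in 31 of 36 samples (two-sided sign-flip permutation test, p = 1e-05, the smallest that 100000 resamples can give). The distal block exceeded the proximal block by 0.244 percentage points and in 29 of 31 samples (permutation test, p = 0.00896). Edge exceeded proximal by 11.0 percentage points and in 27 of 31 samples (permutation test, p = 1e-05). The blocks were set with earlier results of these data known, and the cut between distal and edge lies where the listed level rises. These p-values are therefore no independent test of the level differences. Set beside the 4 blocks of cytosines listed for the other genes, whose medians ran from 1.86% to 4.93%, the proximal and distal Nr4a3 medians were the lowest and the edge median the highest, although the range of the edge block covered those of all the others.

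**Figure D1:**
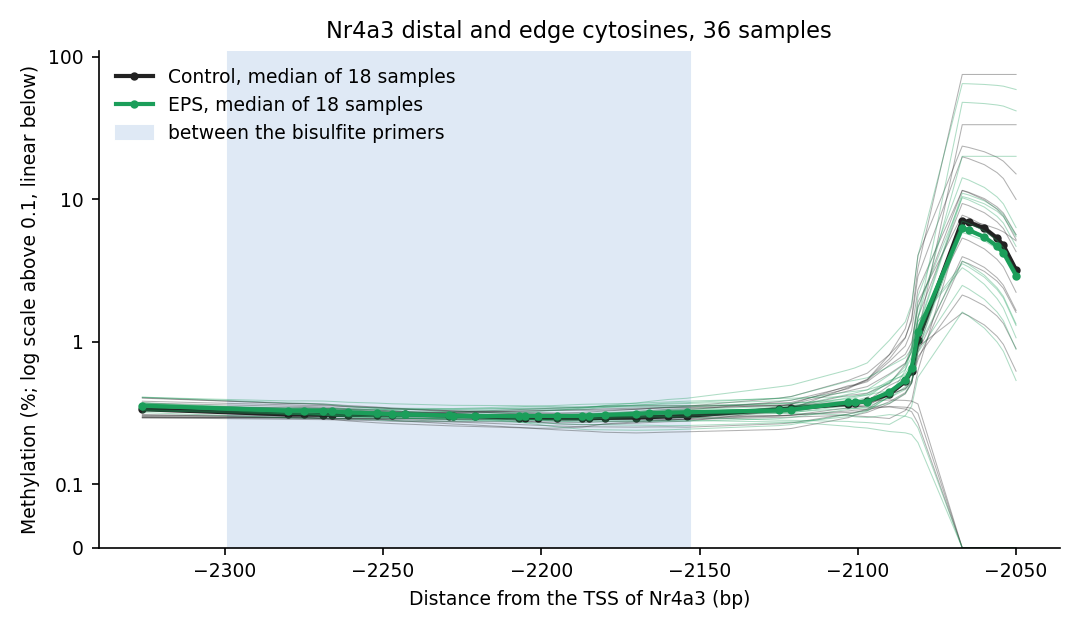
Methylation in percent at each distal and edge cytosine of Nr4a3 against its distance from the TSS in bp, with a log axis above 0.1 and a linear one below. Thin lines are the 36 samples (grey control, green EPS), thick lines the medians of 18 control and 18 EPS-stimulated samples, and the shaded band lies between the primers; the lines stay near 0.3% in the band and spread from 0 to 75% at the right end.

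Along the distal block, the level changed little over most of its length and then climbed. The first cytosine, −2326 bp, had a mean of 0.347% ± 0.0337 (SD, n = 36), and the lowest, −2195 bp, had 0.300% ± 0.0300. At −2154 bp, the last between the primers, it was 0.316% ± 0.0398. The last cytosine, −2081 bp, was the highest of the block, at 1.35% ± 0.953, and ranged from 0.197% to 4.04% between samples. It lay above −2195 bp in 33 of 36 samples. Averaged over the 22 cytosines between the primers, samples lay between 0.260% and 0.365% (mean 0.310%, coefficient of variation 8.00%). Over the 9 cytosines beyond the amplicon they lay between 0.244% and 1.25% (mean 0.561%, coefficient of variation 40.7%). The spread of the distal block between samples was thus mostly that of its last 9 cytosines. Between the primers, the 5 CHG cytosines averaged 0.304% ± 0.0266 and the 17 CpG cytosines 0.311% ± 0.0244 (SD, n = 36), so the 2 contexts were listed at nearly the same level. Whether this level, and with it the excess over the proximal block, lies above the background of the assay was not tested.

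At the edge the level was higher and fell with distance from the distal amplicon. Mean methylation was 12.3% at −2067 bp, 12.1% at −2065 bp, 11.5% at −2060 bp, 10.8% at −2056 bp, 10.3% at −2054 bp and 9.07% at −2050 bp, with an SD between 16.9 and 17.3 over samples at each. The fall from −2067 to −2050 bp was present in 28 of 36 samples. The other 8 had a single value at all 6 cytosines, to 6 significant digits. Those values were 75% in control replicate 2 at 30 min, 33.3% in control replicate 3 at 60 min, 20% in EPS replicate 3 at 120 min, and 0% in 5 samples. The 5 samples at 0% were EPS replicate 3 at 60 min, control replicate 1 and EPS replicate 1 at 120 min, control replicate 3 at 180 min and control replicate 1 at 240 min. From −2081 to −2067 bp, 14 bp apart, the level rose in 31 of 36 samples, and the 5 exceptions were those at 0%. Control replicate 3 and EPS replicate 1 at 0 min had equal edge values at all 6 cytosines, from 7.03% down to 3.13%, and no equal value among their 32 distal cytosines. Their highest, lowest and mean edge values matched at 6 significant digits.

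Cytosines of a block moved together from sample to sample. The median correlation between neighbours was 0.996 over 31 distal pairs and 1.00 over 5 edge pairs (Pearson r over 36 samples, cytosines read in the same libraries, given as a description). Across the 14 bp between the blocks it was 0.723, and between −2195 and −2067 bp it was −0.0932. For this reason the values of a block were averaged in each sample and cytosines were never counted as replicates. As deviations from the mean of their group, the distal and edge block means rose and fell together over the 36 samples (Pearson r = 0.611, permutation p = 7e-05, adjusted p = 0.00021; Spearman rho = 0.672, permutation p = 8e-05, adjusted p = 0.00024; 3 relations). Without EPS replicate 3 at 30 min and control replicate 2 at 120 min, the samples farthest from the median in the distal block, r was 0.539. Both blocks lie side by side in the same libraries. Distal and proximal deviations gave r = 0.172 (permutation p = 0.444, adjusted p = 0.444; rho = 0.145, permutation p = 0.556, adjusted p = 0.556; n = 30; r = 0.234 without the same 2 samples). Edge and proximal deviations gave r = 0.682 (permutation p = 0.111, adjusted p = 0.167; rho = 0.607, permutation p = 0.111, adjusted p = 0.167; n = 30; r = 0.599 without EPS replicate 3 and control replicate 2 at 30 min).

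The proximal block was listed at 0% wherever it had a value, apart from cytosines of 2 control samples. Of its 828 possible values, 186 (22.5%) are missing, and 610 of the 642 listed (95.0%) are 0. No value is listed in 5 samples, EPS replicate 3 at 120 min, control replicate 1 at 180 min, and control replicates 1 and 3 and EPS replicate 3 at 240 min. Another 6 samples lack part of the block, 5 of them everything before the CA repeat and EPS replicate 2 at 30 min only −260 bp. Before the repeat, from −260 to −166 bp, 10 samples have no value at the 14 cytosines, and after it, from −122 to −45 bp, 5 samples have none at the 9. No cytosine of the block had a value in every sample, so its means use the listed values of each sample. Samples without any value were 3 of 18 in control and 2 of 18 in EPS-stimulated cells (Fisher's exact test, two-sided, p = 1).

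**Figure D2:**
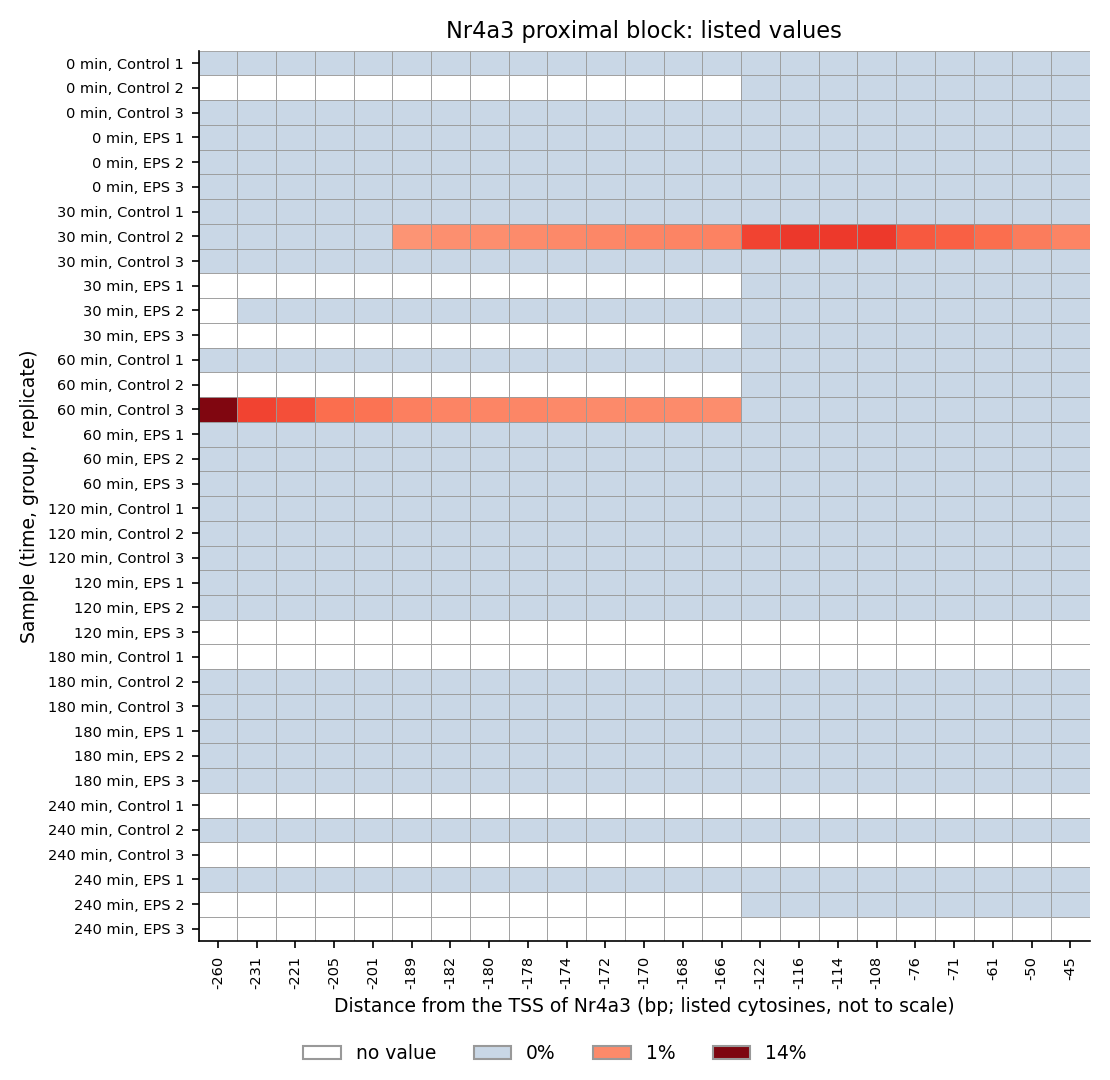
Listed methylation in percent at the 23 proximal cytosines of Nr4a3 (columns, distance from the TSS in bp, not to scale) in the 36 samples (rows, by time, group and replicate). White is no value, grey-blue 0%, and red a value above 0% up to 13.9%; coloured cells appear in 2 control rows only, at 30 and 60 min.

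The 32 proximal values above 0 came from 2 libraries. In control replicate 2 at 30 min the block mean was 2.27%, with 0% at −260 bp, the highest value of 6.63% at −116 bp, and 1.60% at −45 bp. Its cytosines in the half-sites had 4.57% at −76 bp, 3.22% at −61 bp and 2.17% at −50 bp. Control replicate 3 at 60 min had a block mean of 1.89%, falling from 13.9% at −260 bp over 5.92% at −231 bp to 1.01% at −166 bp, and 0% at all 9 cytosines from −122 bp on. The 2 libraries therefore had their highest values on opposite sides of the repeat. They were also the control samples with the 2 highest edge means, 75% and 33.3%, whereas the 2 EPS-stimulated samples with the highest edge means, replicate 3 at 30 min (62.8%) and replicate 1 at 60 min (45.8%), were at 0% at every proximal cytosine with a value (the former has none before the repeat). Values above 0 occurred in 2 of 15 control and 0 of 16 EPS-stimulated samples with a value (Fisher's exact test, two-sided, p = 0.226), and these Fisher tests were chosen after the values were seen. Averaged over all samples, the highest proximal cytosine was −260 bp, at 0.558%, and the lowest −45 bp, at 0.0515%, both means of zeros and 1 other value.

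Control cells showed no change with time that exceeded the spread between samples. The distal block of control cells was lowest at 0 min, at 0.347% ± 0.0590, and highest at 30 min, at 0.432% ± 0.0648 (SD, n = 3 each; permutation test of the time labels over 18 controls, p = 0.879). Control means of the edge block lay between 4.0% at 180 min and 28.6% at 30 min (permutation p = 0.687), the latter set by the 75% of control replicate 2. The proximal control mean was 0% except for 0.756% at 30 min and 0.629% at 60 min, each set by the single library described above (permutation p = 1, 15 controls). Between the distal primers, control means lay between 0.280% at 240 min and 0.323% at 180 min (permutation p = 0.208).

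EPS minus control was then computed at each time from the 3 and 3 samples, and a two-sided exact permutation test was applied, which cannot go below p = 0.1 with 3 against 3. The groups overlapped in all 18 comparisons of an Nr4a3 block, and over the blocks of all 3 genes 2.38% of comparisons (1 of 42) did not overlap. The adjusted p (Benjamini-Hochberg over the 42) was 1 in every one.

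Directly after EPS, at 0 min, the distal block was 0.322%, 0.414% and 0.304% in control replicates 1, 2 and 3 and 0.358%, 0.399% and 0.313% in EPS replicates 1, 2 and 3. The difference of the means was 0.00951 percentage points (SE 0.0421, exact permutation p = 0.9), and it was −0.00278 without control replicate 1, −0.0119 without control replicate 3 and −0.0116 without EPS replicate 2. At 30 min the control samples had 0.362%, 0.490% and 0.444% and the EPS-stimulated ones 0.340%, 0.425% and 0.594%. EPS replicate 3 was the highest of all 36 samples, and the difference of 0.0210 (SE 0.0836, exact permutation p = 1) was −0.0497 without it and −0.0140 without control replicate 1. At 60 min the controls had 0.346%, 0.409% and 0.375% and the EPS-stimulated samples 0.359%, 0.356% and 0.304%. All 3 EPS-stimulated samples lay below the control mean of 0.377%, but 2 of them lay above the lowest control, and the difference was −0.0369 percentage points (SE 0.0254, exact permutation p = 0.3). It kept its sign but shrank to −0.0192 without EPS replicate 3 and to −0.0208 without control replicate 2.

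At 120 min the distal control values were 0.304%, 0.517% and 0.300%, against 0.280%, 0.394% and 0.388% after EPS. The difference of −0.0194 (SE 0.0807, exact permutation p = 0.8) turned to 0.0522 without control replicate 2 and to 0.0178 without EPS replicate 1. At 180 min the controls had 0.469%, 0.344% and 0.331%, and the EPS-stimulated samples lay close together at 0.393%, 0.426% and 0.437%. They were above 2 of the 3 controls and below the other, with a difference of 0.0374 percentage points (SE 0.0459, exact permutation p = 0.4) that became −0.0861 when each sample was centred on the other 2 genes. Without control replicate 1 it was 0.0814, and without control replicate 2 or 3 it was 0.0186 or 0.0124. At 240 min the values were 0.322%, 0.333% and 0.512% in control and 0.372%, 0.376% and 0.329% in EPS-stimulated cells. Control replicate 3 set the direction of the difference of −0.0300 (SE 0.0634, exact permutation p = 0.9), which was 0.0316 without it.

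**Figure D3:**
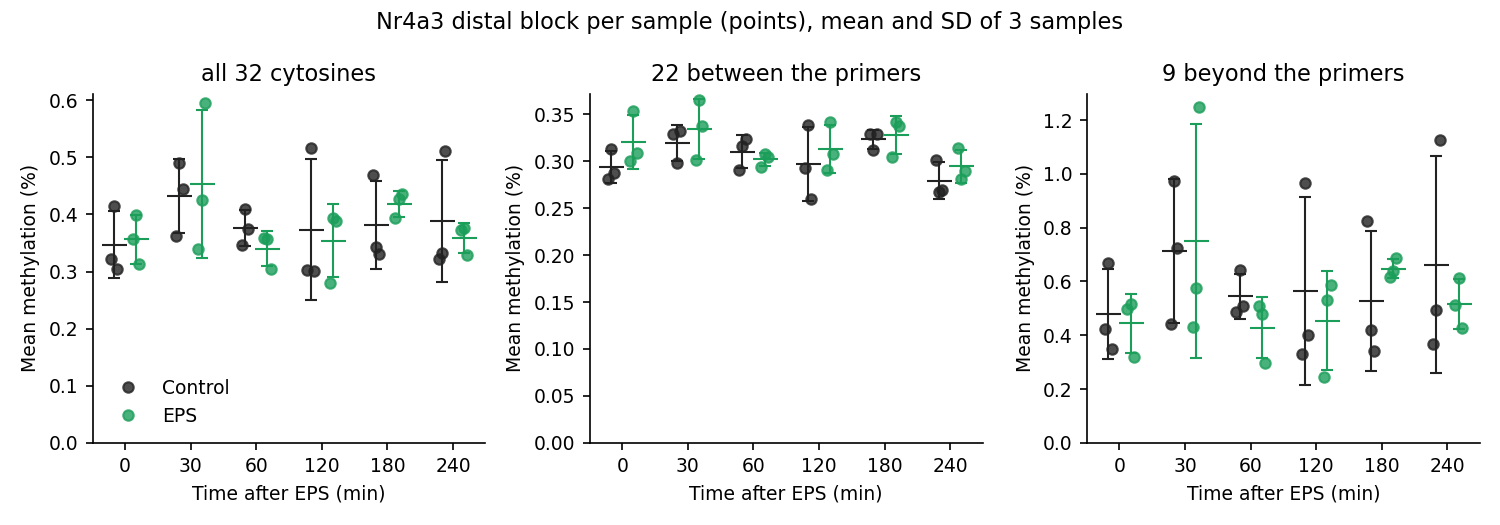
Mean methylation in percent of the distal Nr4a3 block per sample (points; black control, green EPS) against time after EPS in min, for all 32 cytosines, the 22 between the primers and the 9 beyond them. Horizontal lines are means and bars SD of 3 samples; between the primers all samples lie from 0.260% to 0.365%, while beyond them they reach 1.25%.

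Averaged over the 6 times, the distal difference was −0.00306 percentage points (SE 0.0247, stratified permutation test, p = 0.898, 3 times higher and 3 lower). Its 2 parts differed in sign. Between the primers EPS-stimulated samples were higher at 5 of 6 times, by 0.0117 percentage points on average (SE 0.00762, permutation p = 0.114), and the exception was 60 min, with 0.310% ± 0.0171 in control and 0.302% ± 0.00682 in EPS-stimulated cells (SD, n = 3 each). Beyond the amplicon they were lower at 4 of 6 times, by −0.0418 on average (SE 0.0815, permutation p = 0.591). In neither part did the difference exceed the spread, and whether the parts differ from each other was not tested. The 5 CHG and the 17 CpG cytosines between the primers both followed this, with higher means after EPS at every time but 60 min. The CHG difference was −0.0157 at 60 min and between 0.00310 at 180 min and 0.0291 at 0 min otherwise, and the CpG difference was −0.00605 at 60 min and between 0.00517 at 180 min and 0.0263 at 0 min otherwise (exact permutation p of 0.2 or more at each).

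The edge block varied more between replicates than between groups at every time. At 0 min control samples had 2.83%, 5.90% and 5.44%, and EPS-stimulated ones 5.44%, 4.68% and 1.13%, a difference of −0.972 percentage points (SE 1.64, exact permutation p = 0.6) that was 0.339 without EPS replicate 3. At 30 min they had 1.62%, 75% and 9.22% against 5.03%, 8.53% and 62.8%. Each group thus held 1 sample above 60% and 2 below 10%, and the difference was −3.16 (SE 29.9, exact permutation p = 0.8), or 20.0 without control replicate 2 and −21.8 without EPS replicate 3, and it also turned positive without EPS replicate 1 (7.05) or 2 (5.30). At 60 min the values were 1.18%, 7.31% and 33.3% in control and 45.8%, 4.85% and 0% in EPS-stimulated cells, so that the EPS-stimulated samples took both the lowest and the highest place. Their mean was 2.94 percentage points higher (SE 17.6, exact permutation p = 0.9), and the difference was −11.5 without EPS replicate 1, −3.44 without control replicate 1 and −0.376 without control replicate 2.

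At 120 min the edge values were 0%, 16.0% and 6.34% in control and 0%, 8.92% and 20% in EPS-stimulated cells, with a difference of 2.20 percentage points (SE 7.42, exact permutation p = 0.8). Both groups had 1 sample at 0, and the difference turned negative without control replicate 1 (−1.52) or EPS replicate 3 (−2.98). At 180 min control samples had 8.98%, 3.01% and 0%, against 2.56%, 8.00% and 2.29% after EPS, a difference of 0.291 (SE 3.23, exact permutation p = 1) that turned negative without control replicate 2 (−0.202), control replicate 3 (−1.71) or EPS replicate 2 (−1.57). At 240 min control samples had 0%, 4.06% and 20.2%, and EPS-stimulated ones 2.65%, 11.0% and 1.79%, a difference of −2.96 (SE 6.84, exact permutation p = 0.8) that was 3.11 without control replicate 3. All EPS-stimulated values of these last 2 times lay inside the range of their controls. Over all times the mean difference was −0.277 percentage points (SE 6.05, stratified permutation test, p = 0.956). Samples above 30% were 2 of 18 control and 2 of 18 EPS-stimulated, all at 30 or 60 min, and samples at 0% were 3 and 2.

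**Figure D4:**
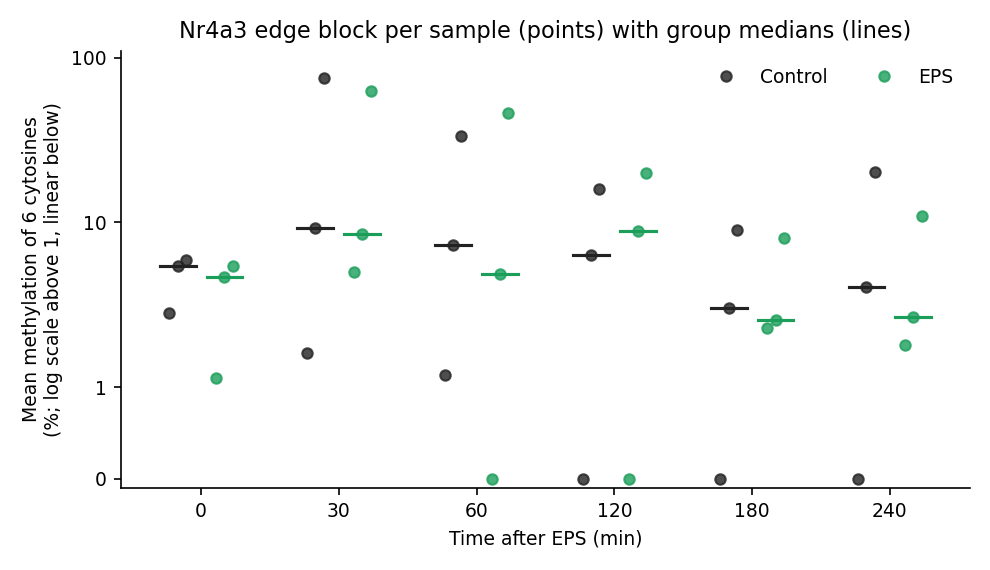
Mean methylation in percent of the 6 edge cytosines of Nr4a3 per sample (points; black control, green EPS) against time after EPS in min, on an axis that is logarithmic above 1 and linear below. Lines are group medians; every group overlaps its counterpart, and values run from 0 to 75%.

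In the proximal block all samples with a value were at 0% in both groups at 0, 120, 180 and 240 min, with 3 control and 2 EPS-stimulated samples left at 120 min, 2 and 3 at 180 min, and 1 and 2 at 240 min. The difference there was 0 (exact permutation p = 1), and with 1 against 2 the test allows no p under 0.333. At 30 min it was −0.756 percentage points (SE 0.756) and at 60 min −0.629 (SE 0.629, exact permutation p = 1 at both). Each is 1 control library against zeros, and without that library each is 0. Over all times the mean was −0.231 (SE 0.209, stratified permutation test, p = 0.50). The block means do not all cover the same cytosines, since some samples have no value before the repeat. At 30 min the difference was −0.257 before the repeat (3 control and 1 EPS-stimulated sample) and −1.53 after it (3 and 3). At 60 min it was −1.55 before the repeat (2 and 3) and 0 after it (3 and 3). The distal difference was set against the proximal one within the samples that had a value in both blocks. At 0, 30, 60 and 120 min the exact permutation p was between 0.5 and 0.9 (adjusted p = 0.9 over 6 tests). At 180 min, where control replicate 1, the highest distal control, has no proximal value, the exact permutation p was 0.1 (adjusted p = 0.6) and at 240 min 0.333 (adjusted p = 0.9). These are the smallest p that 2 against 3 and 1 against 2 samples allow, so these 2 tests could not pass the threshold, and at no time could any of the 6 go below 0.1.

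**Figure D5:**
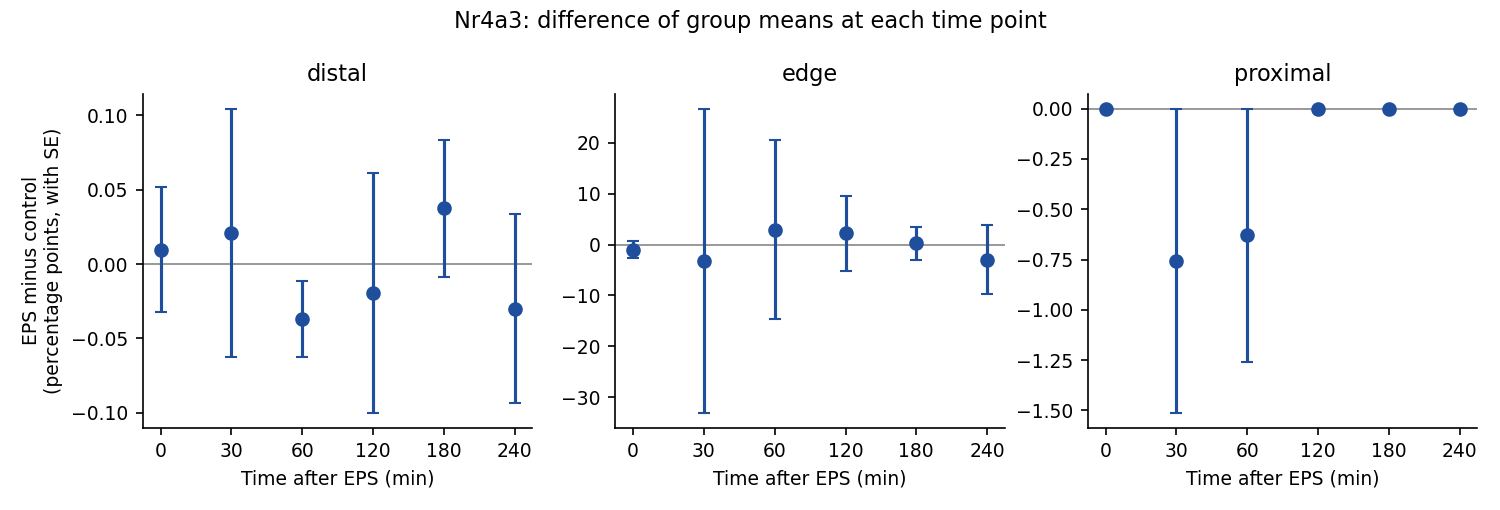
Difference of the group means, EPS minus control, in percentage points with its SE, against time after EPS in min, for the distal, edge and proximal blocks of Nr4a3. Each panel has its own axis; the distal points lie between −0.0369 and 0.0374, the edge points between −3.16 and 2.94, and the proximal points at 0 except at 30 and 60 min, where each SE bar reaches 0.

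Single cytosines were tested with limma on log2(beta/(1 − beta)), where beta is the methylation as a fraction held 0.001 away from 0 and 1, over the 117 cytosines of the 3 genes with a value in every sample. All 38 distal and edge cytosines of Nr4a3 were among them, and none of the proximal ones. Of their 228 tests, 0 had an adjusted p under 0.05 and 0 an unadjusted p under 0.05, where 0.427% of all 702 tests (3) had an unadjusted p under 0.05 and 0 an adjusted one. These 3 fell at 30 min (0.855% of 117 cytosines) and at 120 min (1.71%), and none was in Nr4a3. The cytosine with the smallest p of Nr4a3 was −2326 bp at 60 min, just outside the amplicon, which was higher after EPS by 0.20 on the log2 scale (SE 0.11, limma adjusted p = 1.00, unadjusted 0.0880). The smallest of the other times were −2207 bp at 0 min (0.14, SE 0.10) and at 240 min (0.10, SE 0.10), −2180 bp at 30 min (0.15, SE 0.13) and at 120 min (0.18, SE 0.13), and −2103 bp at 180 min (0.25, SE 0.24), each with a limma adjusted p of 1.00. All of these are distal cytosines with a higher value after EPS. Leaving out 1 replicate number changed their size but not their direction. The −2326 bp estimate was 0.068 without replicate 1 and 0.35 without replicate 2. At −2180 bp it was 0.32 without replicate 1 and 0.0080 without replicate 2 at 30 min, and 0.0425 without replicate 3 at 120 min. The −2103 bp estimate was 0.44 without replicate 1 and 0.093 without replicate 3. At −2207 bp it was 0.093 without replicate 2 at 0 min and 0.060 without replicate 3 at 240 min.

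The direction of the 38 estimates ran along whole stretches, since neighbours share their values. At 60 min 29 of 38 were lower after EPS (23 distal and 6 edge), when 58.1% of all 117 cytosines were lower. At 180 min 38 of 38 were higher, when 22.2% of all cytosines were lower. At 0 min 25 were higher, all distal, and 13 were lower, the 6 edge cytosines among them, when 40.2% of all cytosines were lower. At 30 min 12 of 38 (43.6% of all cytosines), at 120 min 10 of 38 (37.6%) and at 240 min 9 of 38 (52.1%) were lower, and the 6 edge cytosines were higher at these times. For the edge at 30, 60 and 240 min, and for most distal cytosines at 120 and 240 min, these log2 estimates had the opposite sign to the difference of the block means in percent. Edge values of 0 enter at the limit of 0.001, and with a limit of 0.01 the edge difference at 240 min had the sign of the percent scale (−0.309 on the log2 scale). The median SE of these differences was 0.12 for a distal and 2.53 for an edge cytosine on the log2 scale, so the edge could show only far larger changes than the distal block. Whether the EPS minus control difference of a block changed from one time to another was tested for every pair of times in the distal and edge blocks and for the 10 pairs without 240 min in the proximal block, where 1 control sample has a value at that time (40 tests), and the smallest exact permutation p was 0.165 for the distal, 0.595 for the edge and 1 for the proximal block (adjusted p = 1 in each).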

How the data were processed

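Bisulfite-converted DNA of the 36 samples was amplified in 1 multiplex PCR per sample and sequenced. Per the submitters' processing notes, the authors trimmed reads with Trim Galore 0.3.7 and cutadapt 1.4.2 and used Bismark and the mm10 build; featureCounts is also named there. They deposited methylation in percent per cytosine and sample, with no read counts or coverage, so depth is unknown, the precision that it sets cannot be given, and no coverage minimum or counting interval could be applied. A deposited table of 1 p-value per gene and time, which holds the authors' own comparison, was not used. No smoothing step is given in the sources used here, although neighbouring values vary smoothly.

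Groups and replicate numbers came from the titles; 1 control sample at 0 min is numbered 3 in its title and 2 in another field, and the title was used. Distal and edge block means used the cytosines with a value in all 36 samples, proximal means the listed values. Tests were exact permutation tests at each time, permutation tests with 100000 resamples stratified by time, and sign-flip permutation tests between blocks, all two-sided. Single cytosines were fitted with limma 3.58.1 in R 4.3.3 (12 group means, 24 residual degrees of freedom, eBayes), adjusted by Benjamini-Hochberg over 702 tests, after the script was tested on simulated data. Other computations used Python 3.11.15, numpy 2.4.6, scipy 1.17.1 and pandas 2.3.3, and matplotlib 3.10.9 for plots. Primers and half-sites were matched to GRCm38 by exact search, and promoters came from RefSeq. Named cytosines are the first, last, lowest and highest of each block, every edge cytosine, and that of the smallest limma p at each time; half-site cytosines and those at the limits of the primers or of a stretch of values were added after their values were seen. Alternatives were another scale, the median, centring, a replicate block, cytosines between the primers only, other limits on beta, and each sample left out. The gene, blocks and lists were chosen with earlier results of these data known.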

Additional observations from a re-analysis of the deposited data

How the results depend on the processing

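No EPS minus control difference of an Nr4a3 block passed 0.05 in the permutation tests under any alternative, and limma gave 0 adjusted p under 0.05 for Nr4a3 under a replicate block, other limits on beta, the percent scale, or without each replicate number (with beta held 0.01 away, distal values under the limit become equal, so that setting says nothing on most distal cytosines); a minimum of 2 values per group added no cytosine. Directions did change. On the log2(beta/(1 − beta)) scale the distal difference was 0.00209 at 120 min, 0.0139 at 240 min and 0.0225 over all times, and the edge difference was 0.25 at 30 min, −1.13 at 60 min, 0.79 at 240 min and 0.16 over all times. Edge samples listed at 0 sit at the chosen limit of 0.001 on this scale. With a limit of 0.01, added after seeing the data, the edge difference was 0.240 at 30 min, −0.0584 at 60 min, −0.309 at 240 min and −0.0167 over all times, so at 240 min and over all times the change of sign came from the limit. With the median over cytosines the distal difference was 0.00856 at 120 min, 0.0132 at 240 min and 0.00698 over all times, and with cytosines between the primers only it was 0.0164, 0.0153 and 0.0117. At 60 and 180 min the sign held but the size fell, to −0.00951 and 0.00255 with the median and −0.00824 and 0.00470 between the primers. The sign also held at 0 and 30 min. At 0 min the distal difference rose to 0.0210 with the median and 0.0269 between the primers. At 30 min it fell to 0.00619 with the median and 0.0150 between the primers. Centred on the other 2 genes the distal differences from 30 to 240 min became 0.126, −0.0955, −0.120, −0.0861 and 0.0882, and the proximal ones of 120, 180 and 240 min, otherwise 0, became −0.248, −0.172 and 0.274. The cause of the other changes was not tested.

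With each sample left out in turn, the distal difference ranged from −0.0119 to 0.0432 at 0 min, −0.0497 to 0.0776 at 30 min, −0.0521 to −0.0192 at 60 min, −0.0559 to 0.0522 at 120 min, 0.0124 to 0.0814 at 180 min, −0.0634 to 0.0316 at 240 min, and −0.0148 to 0.00886 over all times. The edge difference ranged from −1.92 to 0.339, −21.8 to 20.0, −11.5 to 12.6, −2.98 to 7.02, −1.71 to 2.78 and −7.01 to 3.11 at the same 6 times, and from −3.39 to 3.59 over all. The proximal difference ranged from −1.13 to 0 at 30 min, −0.943 to 0 at 60 min and −0.294 to −0.105 over all times. With single samples left out, the distal differences at 60 and 180 min and these proximal ones kept their sign or went to 0, and the other distal and edge differences did not all keep theirs.

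Nothing in the sources used here says that same-numbered samples of a time share an origin. Their deviations correlated over 0.1 in 9 of 18 pairs, with r from −0.801 to 0.922, and in all 3 pairs at 120 min only, so they were not treated as pairs. The same replicate numbers recur at every time and the study speaks of independent experiments, so a shared origin remains possible. Tests over the 36 samples count each as a unit and would then overstate the replication. With replicate numbers as a block the distal and edge differences are the same by construction, and the proximal mean over all times was −0.297 (permutation p = 0.501); the block changed no call. On the log2 scale, added after seeing the data, the edge stayed above the distal block (by 3.60, permutation p = 1e-05). Here too the blocks had been set with earlier results known. The distal block stayed above the proximal as well, but 29 of 31 proximal means are 0 and sit at the limit, which sets the size of that difference. Unknown depth limits every value. The missing, flat and zero values of the edge and the proximal block cannot be weighed by the reads behind them. With 3 samples per group no single time could pass the threshold in the exact test.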
